A study of Mus musculus with 2 samples.

Results

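The genes of the cytosolic ribosomal proteins were examined on 2 Affymetrix Mouse Gene 1.0 ST arrays of mouse embryonic stem (ES) cells. A probe set, the group of probes that the array reads as 1 transcript, was taken when its platform annotation gave a single gene symbol of the form Rpl or Rps with a number and an optional a, l or x, or Rplp0 to Rplp2 or Rpsa, and the Rps6k kinases were left out. This gave 215 of 21789 probe sets with 1 symbol. They represent 59 of 19938 named genes, 37 of the large subunit (131 probe sets) and 22 of the small subunit (84 probe sets). RefSeq lists 81 protein-coding mouse genes with names of this form. Of these, 58 had a probe set with 1 symbol. The other 23 have no gene value here, and 16 of them are named only in probe sets with several symbols, which are described in the closing section as a group. The remaining member, Rps4l, is annotated as a transcribed pseudogene.

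Cells of both groups held a transgene that doxycycline switches on and that encodes CTCFL, a testis protein related to CTCF, joined to V5 and to the fluorescent protein GFP. They were grown with leukemia inhibitory factor on gelatin. In the induced group the cells had received doxycycline for 3 days and had then been sorted by GFP. The non-induced group received no doxycycline and was not sorted. Each group is 1 array of a Tet-on transgenic culture, so induction, doxycycline and sorting cannot be told apart, no test of the groups was possible, and each value describes these arrays only. The Ctcfl probe set read 9.44 in the induced array against 5.99 in the non-induced array (log2 signal), which fits the labels. All 10 ES cell markers examined, among them Pou5f1, Sox2 and Nanog, lay at 8.30 to 13.16 in the induced array, against 8.43 to 13.02 in the non-induced array, above the median of all gene values (6.36), which serves as the floor below.

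A ribosome is built from a small subunit, which holds the mRNA and reads the codons, and a large subunit, which forms the peptide bond. The proteins are needed in about equal amounts, and their mRNAs are among the most abundant of a growing cell. Mammalian ribosomal protein mRNAs typically begin with a run of pyrimidines (the TOP motif), through which their translation follows nutrient signalling by mTOR. Many of their introns carry small nucleolar RNAs (snoRNAs), which guide the modification of ribosomal RNA. A few members have paralogs with restricted expression, such as Rpl10l, which stands in for the X-linked Rpl10 during male meiosis in mice.

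The sequences around the start sites of members were looked at first, since common letters at the promoter are a feature of this family that the choice of members did not use. RefSeq windows of GRCm38.p6, from 250 bases before to 50 bases after the start, were found for 47 of the 59 genes. CCGGAAG, a core of ETS factor sites, was searched on both strands and was present in a window of 18 of the 47 genes (38.3%), against 9.93% of 27025 genes with such windows. CTTTCC, letters found in many TOP starts, lay on the gene strand within 20 bases of the start in 5 of the 47 (10.6%), against 2.36% of all genes. In the whole window and on either strand CTTTCC was found in 24 of 47 (51.1%), against 29.3%. AAGATGGC, a YY1 motif, was found in 2 of 47 (4.26%, against 3.19%), TATAAA, the core of that promoter box, in 6 (12.8%, against 15.7%) and AGGGGGC, a part of the CTCF motif, in 5 (10.6%, against 11.9%). CTTTCC and CCGGAAG can overlap only in their outermost letters. Starts without CTTTCC can still hold a run of pyrimidines, as in Rpl27a, Rpl7a and Rps15a, so these shares are not shares of TOP mRNAs. A match is a description of letters and not of a bound site.

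The 5 members with CTTTCC within 20 bases of the start are printed here because their signals lay on both sides of 0. In Rpl4 and Rpl39l these letters lie wholly before the annotated start. They are followed by a pair with CCGGAAG beside the start (Rpl6, Rpl26) and the gene with the widest difference (Rpl22, which has 2 annotated starts). Each line gives 60 bases, 30 before the start and 30 from it on, 5′ to 3′ on the gene strand. Capitals mark CTTTCC, and CCGGAAG in either orientation.
Rpl28: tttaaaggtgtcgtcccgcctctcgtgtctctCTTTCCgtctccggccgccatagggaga
Rps10: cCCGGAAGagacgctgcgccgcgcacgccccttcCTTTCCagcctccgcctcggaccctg
Rpl4: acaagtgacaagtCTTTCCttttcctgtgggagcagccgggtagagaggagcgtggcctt
Rpl38: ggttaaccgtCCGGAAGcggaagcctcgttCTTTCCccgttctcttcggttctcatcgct
Rpl39l: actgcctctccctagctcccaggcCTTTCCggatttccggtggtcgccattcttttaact
Rpl6: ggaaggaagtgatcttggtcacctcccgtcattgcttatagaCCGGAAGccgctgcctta
Rpl26: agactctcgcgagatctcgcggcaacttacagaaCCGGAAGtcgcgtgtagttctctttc
Rpl22, upstream start: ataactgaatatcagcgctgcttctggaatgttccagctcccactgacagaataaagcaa
Rpl22, downstream start: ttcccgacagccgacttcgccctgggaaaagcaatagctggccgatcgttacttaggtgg
In the order shown these stretches lie at chr7:4792935-4792994 (plus strand), chr17:27635215-27635274 (minus strand), chr9:64173357-64173416, chr11:114668550-114668609, chr16:10170198-10170257, chr5:121204471-121204530, chr11:68901536-68901595, chr4:152324406-152324465 and chr4:152325696-152325755 (plus strand for these 7).

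As a group the ribosomal protein genes had slightly higher signals in the induced array. The differences of single members were less widely spread (SD over genes 0.28) than those of all genes (0.41). In the brightest 10% of genes, where most members lie, the SD was 0.37. Differences below are induced minus non-induced log2 values, with the probe set of the highest mean signal standing for a gene. Of the 59 genes 38 were above 0 and 21 below, with a median of 0.12, whereas 51.4% of all 19938 genes were above 0, 48.6% were below and their median was 0.01. Among the 10697 genes that reached the floor in at least 1 array 46.6% were above 0 (median -0.03), and among the brightest 10% of genes, to which 54 members belong, 39.8% were above 0 (median -0.07). Of the 59 members 57 reached the floor, and Rpl39l and Rpl3l did not. With both arrays centred on their medians, 32 of the 59 genes were above 0 and their median was 0.02, against 41.1% and -0.09 for all genes. After removal of the trend on signal level, 42 were above 0. The direction of the group was thus kept, but its size depended on the scaling.

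Markers of other cell types differed between the arrays as well. Of 11 fibroblast and feeder markers 10 were above 0, where 51.4% of all genes were, and 7 of them reached the floor. Their summed linear signals were 3211 in the induced array against 2583 in the non-induced array. These sums rest mostly on the brightest markers, Sparc and Fn1 (10.51 and 9.85 in the induced array). For the 7 endoderm markers, of which 5 were above 0 and 3 reached the floor, the sums were 479 in the induced array against 459 in the non-induced array. The 3 at the floor were Foxa2 (-0.85), Gata4 (0.26) and Gata6 (0.25). For the 10 ES cell markers they were 22598 in the induced array against 22691 in the non-induced array, with 3 above 0. None of the markers was listed at 0. In bulk RNA, fewer cells of a type and less RNA per cell cannot be told apart, and the part of other cell types in the ribosomal protein values was not tested.

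No member differed by log2 1 or more, in either direction, where 0.477% of genes at the floor were higher and 1.79% lower by this amount. At log2 0.58 (1.5-fold) 0 members were higher (5.31% of all genes at the floor) and 1 was lower (8.45% of all), which was Rpl22. Genes as bright as most members were seldom higher by these amounts. Of the 1994 genes in the brightest 10%, to which 54 members belong, 0 were higher and 53 lower by log2 1. By log2 0.58, 15 of the 1994 were higher and 208 lower. These counts use probe sets with 1 symbol. The 3 probe sets that name Rpl26 with other symbols had a median of -0.60. At log2 0.25 in size, 18 of the 57 members at the floor were higher (31.6%) and 7 lower (12.3%), where 22.1% of all genes at the floor were higher and 27.2% lower. Of the 1994 brightest genes 264 were higher and 588 lower by this amount. With 1 array per group these counts have no error, and a difference of this size was not set against any spread between cultures.

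**Figure D1:**
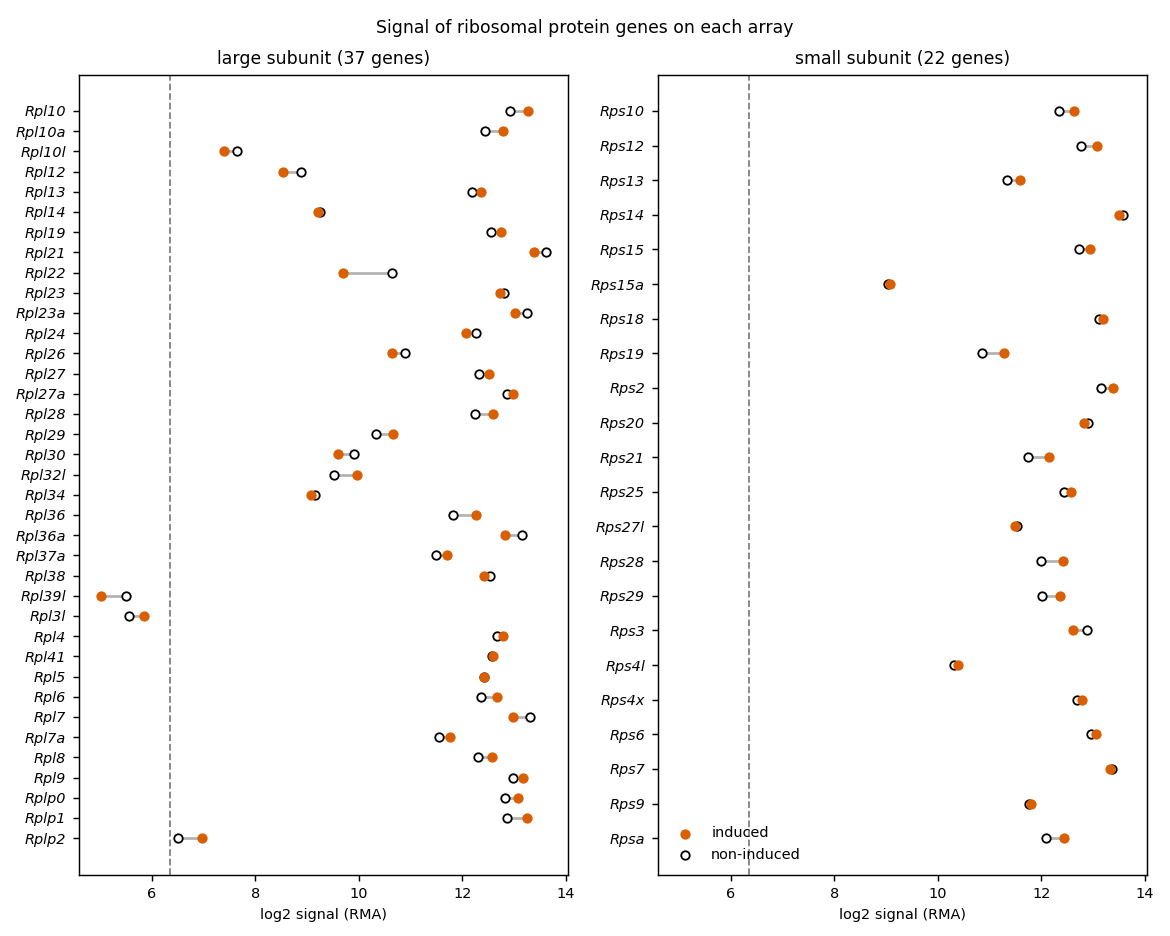
Log2 signal of the 37 large and 22 small subunit genes in the induced (filled) and the non-induced (open) array, in order of name, 1 point per array, with the median of all gene values as a dashed line. Of the 59 genes 36 lie above 12 on both arrays, Rpl22 shows the widest gap (9.70 against 10.65), and Rpl39l and Rpl3l lie left of the line.

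The large and the small subunit were then compared. Their median differences were nearly equal, 0.12 for the large and 0.12 for the small subunit (0.01 apart), whereas the large subunit was more widely spread (SD over genes 0.32, against 0.19). Of the large subunit genes 21 of 37 were above 0, and of the small subunit genes 17 of 22. At log2 0.25, 11 of the 35 large subunit genes at the floor were higher and 6 lower, against 7 higher and 1 lower of 22 in the small subunit. Among all genes at the floor 22.1% were higher and 27.2% lower by this amount. The means, 0.04 for the large and 0.15 for the small subunit, differed by -0.11. When every probe set was counted, 80 of 131 for the large subunit (median 0.16) and 75 of 84 for the small subunit (median 0.20) were above 0. These counts weigh genes by their number of probe sets, and 19 probe sets had both values in common with another of their gene. Centring left 20 large and 12 small subunit genes above 0, so the excess of small subunit genes above 0 was not kept by it. A second quantile normalization gave 22 of 37 large and 18 of 22 small subunit genes above 0. Removal of the level trend gave 24 and 18, so the excess was kept by both. Of all genes 41.1%, 54.2% and 50.3% were above 0 under these settings, in this order. Genes are not replicates of a condition, and no test of the subunits was made.

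The gene with the widest difference was Rpl22, which encodes an RNA-binding protein of the large subunit that mice need for the development of αβ T cells but not for ribosome function in general. Its 1 probe set read 9.70 in the induced array against 10.65 in the non-induced array, so it was 1.93-fold lower (-0.94). It was -1.04 after centring, -0.86 without the level trend and -0.84 after a second quantile normalization. The next lowest member at the floor was Rpl12, at -0.35 by the probe set with its symbol alone. The 7 probe sets that name Rpl12 along with another symbol lay at 0.20 to 0.26, so its sign depended on the probe set. Of the probe sets that name several symbols, the 3 with Rpl26 came closer to Rpl22, at -0.68 to -0.54. With Rpl22 left out, which was decided on seeing its value, the mean of the large subunit was 0.07 and its SD 0.28.

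Several further large subunit genes lower in the induced array had little variation among their probe sets. Rpl36a, an X-linked gene, read 12.82 in the induced array against 13.16 in the non-induced array, and its 2 probe sets were at -0.34 and -0.33. Rpl7 read 12.97 in the induced array against 13.31 in the non-induced array, and its 4 probe sets lay at -0.34 to -0.30. Rpl23a, whose protein sits by the exit of the nascent peptide, was represented by 13 probe sets, all of them at -0.29 to -0.21. Some of these 13 shared both values with another. The 9 probe sets of Rpl21 lay at -0.30 to -0.12 and the 3 of Rpl24, the gene mutated in belly spot and tail mice, at -0.20 to -0.15. Rpl30 (-0.32) and Rpl26 (-0.25), whose protein also binds the p53 mRNA, had 1 probe set each with their symbol alone. The 10 probe sets that name Rpl30 with other symbols had a median of -0.13, and the 3 with Rpl26 a median of -0.60, so the size of both values depended on the probe set. Rpl38, which is required for the normal axial skeleton of mice, was closer to 0, with 4 probe sets at -0.17 to -0.06. Rpl14 (-0.05), Rpl5, which carries the 5S ribosomal RNA and can bind Mdm2 (-0.01), and Rpl41 (0.01) lay near 0. Rpl34 was at -0.08 by its own probe set, whereas 4 brighter ones that also name other symbols lay at -0.49 to -0.27. Rpl23, another Mdm2-binding protein, was at -0.06, but at -0.41 by its dimmer probe set.

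The large subunit genes higher in the induced array included the stalk, the arm of the large subunit that recruits elongation factors. Rplp0, the base of the stalk, read 13.08 in the induced array against 12.82 in the non-induced array (0.26, and 0.29 by its other probe set). Rplp1 read 13.24 in the induced array against 12.87 in the non-induced array (0.37, and 0.35 by its other probe set). Rplp2, the partner of Rplp1, read 6.98 in the induced array against 6.50 in the non-induced array, the highest difference of all members (0.48 or 1.39-fold), at a signal close to the floor. The 3 stalk genes were thus all above 0, as were 38 of the 59 members and 51.4% of all genes. Rpl36 followed at 0.46 (12.27 in the induced array, against 11.81 in the non-induced array), and its 9 probe sets lay at 0.20 to 0.52. Rpl28 (0.36 to 0.40 over 5 probe sets), Rpl10 (0.33 to 0.36 over 6) and Rpl10a (0.25 to 0.36 over 4) were higher by every probe set. Rpl10 is the X-linked gene of a protein that joins the large subunit late, next to the site of peptide bond formation. Rpl29 (0.33), Rpl6 (0.32), Rpl8 (0.27), Rpl37a (0.22), Rpl9 and Rpl19 (0.20 each), Rpl27 (0.19), Rpl13 (0.18), Rpl4, which lines the exit tunnel (0.12), and Rpl27a (0.11) were also higher, as were Rpl7a and the paralogs Rpl32l and Rpl3l, which are described with the other paralogs. The value of Rpl7a was 0.22, but 0.02 and -0.04 by its dimmer probe sets.

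In the small subunit the highest differences were those of Rps19 and Rps28. Rps19, the gene most often mutated in Diamond-Blackfan anemia in humans, read 11.29 in the induced array against 10.86 in the non-induced array (0.43, 1 probe set). Rps28 read 12.41 in the induced array, 0.42 more than in the non-induced array, and its 7 probe sets lay at 0.38 to 0.49. Rps21 (0.41), Rpsa, also known as the laminin receptor (0.35 to 0.41 over 5 probe sets), and Rps29 (0.30 to 0.34 over 4) were close behind. Rps12 had 14 probe sets, more than any other member, and all were higher, by 0.27 to 0.43. Several of the 14 shared both values with another, so they are not 14 separate readings. Rps10 (0.27), Rps13 (0.25), Rps2 (0.24) and Rps15 (0.23) were higher by smaller amounts.

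The other small subunit genes lay near 0, apart from Rps3. Rps6, whose protein is phosphorylated by the S6 kinases downstream of mTOR, was at 0.11 (0.11 to 0.20 over 8 probe sets). The X-linked Rps4x was at 0.09 and the pseudogene Rps4l at 0.08. Rps25 (0.12), Rps18 (0.08), Rps15a (0.04, but a median of 0.18 in 2 brighter probe sets that also name other symbols) and Rps9 (0.03) lay just above 0, and Rps7 (-0.04), Rps20 (-0.07) and Rps14, the gene linked to the 5q- syndrome in humans (-0.08), just below. Rps3, which lies at the mRNA entry and also acts in DNA repair, read 12.61 in the induced array against 12.89 in the non-induced array and had the lowest difference of this subunit (-0.28, 1 probe set).

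**Figure D2:**
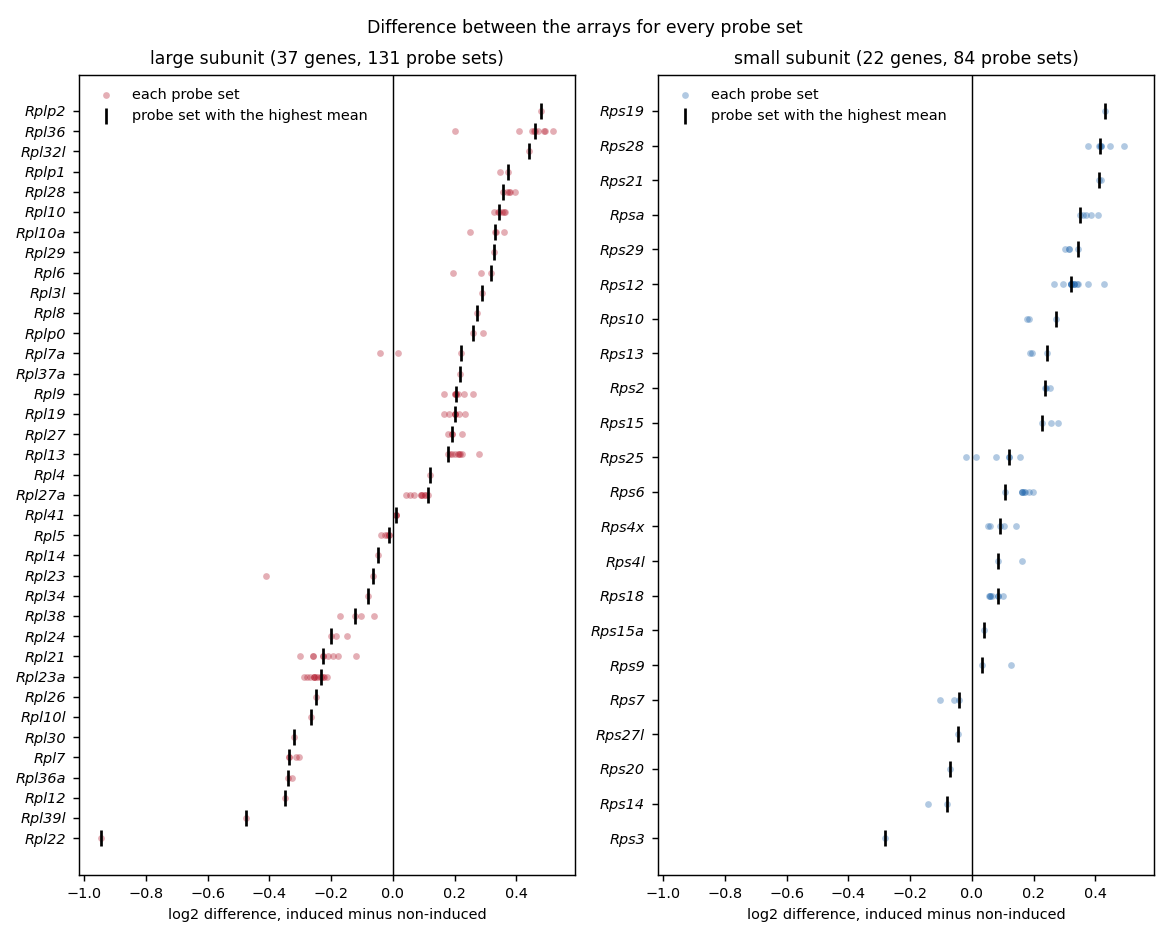
Induced minus non-induced log2 difference for all 215 probe sets (dots), with the probe set used for a gene as a bar, ordered by difference within the large and the small subunit. Dots of a gene cluster together, and Rpl22 lies apart at -0.94.

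The paralogs with restricted expression were of interest because CTCFL belongs to the male germ line. Rpl10l read 7.39 in the induced array against 7.65 in the non-induced array (-0.26), while Rpl10 was at 0.34. Rpl39l, a testis-enriched paralog of Rpl39, read 5.02 in the induced array against 5.50 in the non-induced array (-0.48), below the floor on both. Neither of these germ line paralogs was thus higher in the induced array. Rpl3l, a paralog of striated muscle, read 5.84 in the induced array against 5.55 in the non-induced array (0.29), also below the floor. Rps27l and Rpl32l also have names ending in l, but restricted expression was not shown for them here, and both lay well above the floor. Rps27l, a p53 target, read 11.49 in the induced array against 11.54 in the non-induced array (-0.04). Rpl32l read 9.96 in the induced array against 9.52 in the non-induced array (0.44, and 0.24 in the probe set that names it with another symbol). Whether these probe sets also read the transcripts of the ubiquitous copies was not tested.

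The agreement among probe sets of a gene was measured next, since it is the nearest thing to an error that these arrays allow. Of the 59 genes 39 had several probe sets (195 in all), and in 37 of them every probe set lay on the same side of 0. The exceptions were Rpl7a and Rps25. The spread within a gene (pooled SD 0.05) was smaller than that between genes (SD of gene means 0.22), and 96.6% of the sum of squares lay between genes. In 28 of the 39 genes the probe sets lay within 0.1 of each other, and the widest range was 0.35, in Rpl23. Probe sets of a gene read the same RNA on the same arrays and can share probes, since 19 of them had both values in common with another of their gene. Their agreement covers the reading of the array and not the culture. Ribosomal protein genes have many processed copies in the mouse genome, and which copy a probe set reads was not tested.

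**Figure D3:**
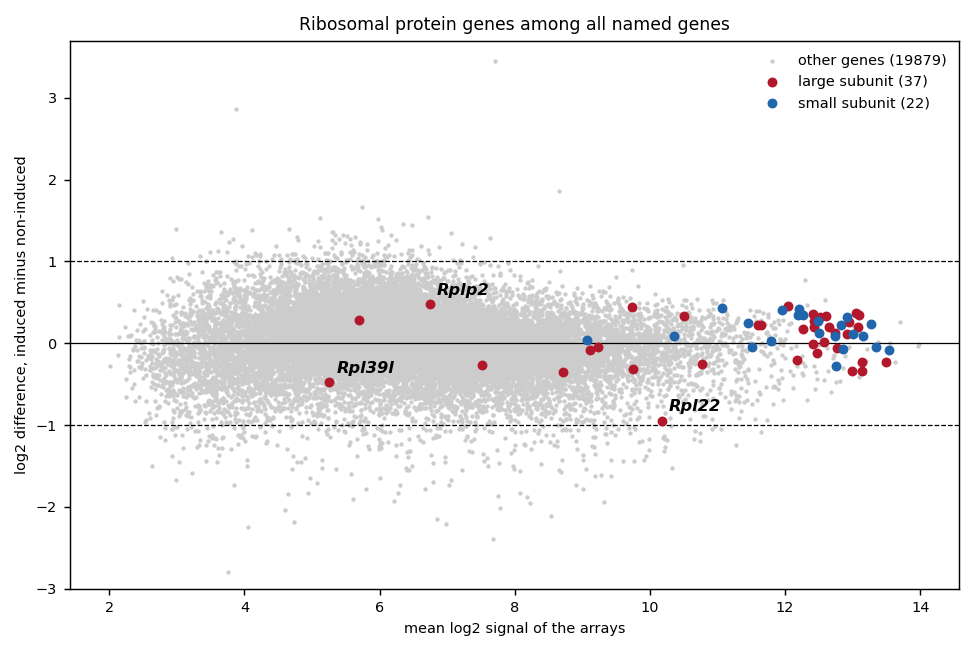
Induced minus non-induced log2 difference (vertical) by mean log2 signal (horizontal) for the large (red) and small (blue) subunit genes and 19879 other genes (grey), with dashed lines at log2 1 in either direction. The coloured points lie within the dashed lines, with Rpl22 nearest to the lower line at -0.94.

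Features that the members share were set against their differences as a description. Members with CCGGAAG in the window had a median of 0.11 (n = 18) and those without it 0.19 (n = 29). Those with CTTTCC within 20 bases of the start, the first 5 printed above, had a median of 0.12 and ranged from -0.48 (Rpl39l) to 0.36 (Rpl28). Those without it there had a median of 0.15 (n = 42). This split is by letters only and does not separate TOP mRNAs from others, which was not tested. Across the 47 genes the difference had a Pearson r of 0.24 and a Spearman rho of 0.35 with the GC content of the promoter window. This was 0.57 and 0.59 in the 18 genes of the small subunit and 0.08 and 0.17 in the 29 of the large subunit, against 0.04 and 0.02 in 8562 genes at the floor. With the length of the gene, on a log scale for Pearson, the values were -0.29 and -0.25 over the 59 members, and -0.05 and -0.11 over 10679 genes at the floor. By subunit they were -0.45 and -0.40 in the small and -0.25 and -0.19 in the large. With mean signal the values were 0.17 and -0.03 over the members, and -0.17 and -0.22 over the genes at the floor. By subunit these were -0.13 and -0.30 in the small and 0.18 and 0.05 in the large. All points come from the same 2 arrays, genes are not independent replicates, and base composition of the probes was not analysed here.

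None of the other lists of ribosome production genes had a median above 0 in the deposited values. Ribosome biogenesis factors, the proteins that process ribosomal RNA and assemble the subunits, were lower as a group. Of 82 measured factors 71 were below 0 and 11 above (median -0.25). The share below 0 was 86.6%, against 53.4% of genes at the floor and 60.1% of the brightest 10% of genes. At log2 1 3 factors were lower and 0 higher, where 1.79% and 0.477% of genes at the floor passed. Mphosph10, of the small subunit processome, read 9.33 in the induced array against 10.64 in the non-induced array (-1.31). Rpf2, which brings the 5S particle into the pre-ribosome, read 9.29 in the induced array against 10.48 in the non-induced array (-1.19). Utp3 was at -1.06, an addition to the genes named by rule made because it was the third of these. Imp3, also of the processome, was higher by 0.39 and Aamp by 0.26. The median of the list was -0.14 after a second quantile normalization and -0.16 without the level trend, so its direction was kept.

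RNA polymerase I and rDNA transcription genes had a median of -0.17 with 14 of 17 below 0 (82.4%, against the same shares of 53.4% and 60.1%). Taf1a, of the selectivity factor that loads polymerase I, read 8.24 in the induced array against 9.19 in the non-induced array (-0.95), and Polr1e was at -0.43. Polr2e and Polr1d, subunits shared with other polymerases, were at 0.15 and 0.14. The regulators of ribosome production had a median of -0.13 with 12 of 20 below 0, close to the 60.1% of the brightest 10% of genes and the 53.4% of genes at the floor that were below 0. Mycn read 8.17 in the induced array against 9.01 in the non-induced array (-0.83). Myc was at -0.82, while the TOR inhibitor Tsc1 was higher by 0.43 and the S6 kinase gene Rps6kb2 by 0.35. Of 42 translation factors 25 were below 0 (59.5%, again close to these shares, median -0.07), with Eef1e1, of the aminoacyl-tRNA synthetase complex, at -0.69 and the initiation factor subunit Eif3e at -0.54, and with Eef2k at 0.37 and Eif3c at 0.36. This median was close to 0 (-0.0036 and -0.0057) after quantile normalization and without the level trend. Of 6 ribosomal protein genes with other names, 2 had a probe set with 1 symbol. Fau, whose product is cleaved to a small subunit protein, was at 0.12 and Rpl7l1, a nucleolar paralog of Rpl7, at -0.24.

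**Figure D4:**
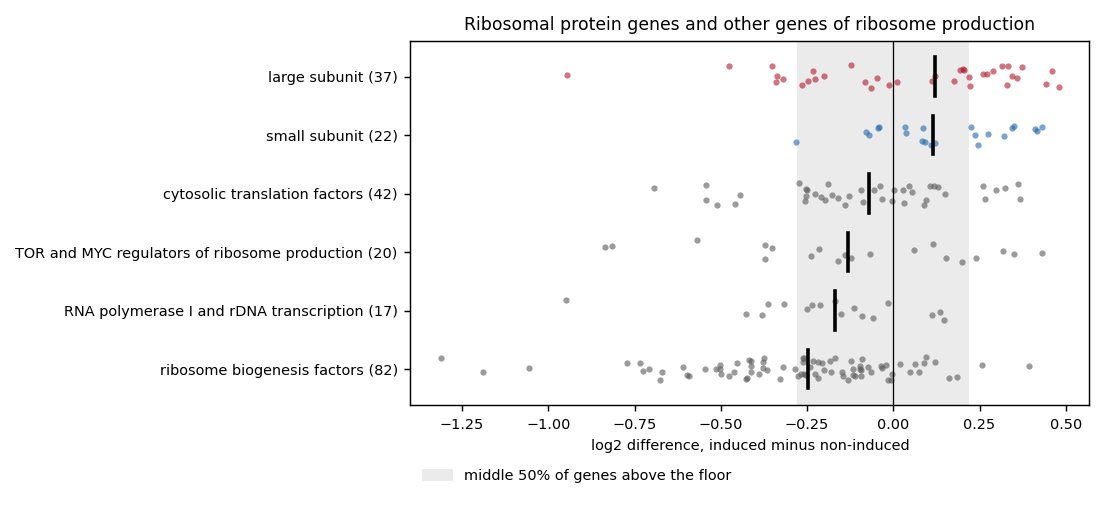
Induced minus non-induced log2 difference for single genes (points; vertical position within a row is random) of the large and small subunit and of 4 other lists, with the median of each as a bar and the middle 50% of genes at the floor in grey (-0.28 to 0.22). The ribosomal protein medians (0.12 each) lie right of 0 and the biogenesis median (-0.25) lies left of it.

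Lastly, snoRNA genes inside the members were set beside the genes that hold them. In RefSeq 19 of the members hold 38 snoRNA genes by position, the strand not being given, and 11 of these snoRNAs in 9 members had a probe set with 1 symbol (13 probe sets). All 13 probe sets were below 0 and below the value of their host gene, with a median of -0.85, whereas the 9 hosts had a median of 0.12. Snora62 read 8.88 in the induced array against 10.33 in the non-induced array (-1.45), while its host Rpsa was at 0.35. Snora33 was at -0.87 inside Rps12, where the host was at 0.32, and Snora70 at -0.49 inside Rpl10, where the host was at 0.34. The 2 probe sets of Snora21, inside Rpl23, were at -1.21 and -1.22. Snord42a and Snord42b, which share the host Rpl23a (-0.23), were at -2.11 and -0.82. The snoRNAs inside Rps3, Snord15a (-0.49) and Snord15b (-0.64), were closest to their host (-0.28). Snora3 (-0.85 and -0.88) in Rpl27a, Snord16a (-0.40) in Rpl4 and Snora52 (-0.18) in Rplp2 completed the set. Low values were not particular to snoRNAs of ribosomal protein genes, since 52 of all 53 measured snoRNA genes were below 0 (median -0.77).

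**Figure D5:**
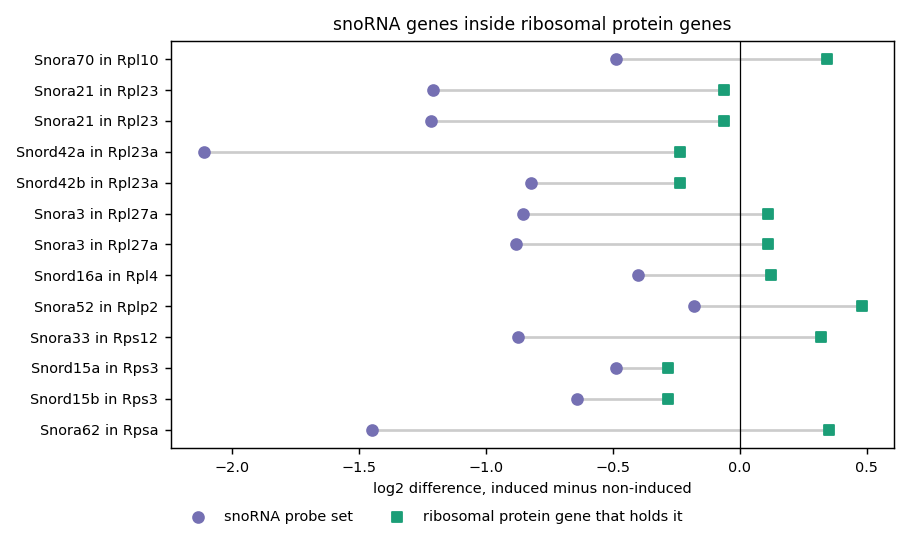
Induced minus non-induced log2 difference for 13 snoRNA probe sets (circles) and of the ribosomal protein gene that holds each (squares). Each circle lies left of its square, with the widest gap for Snord42a in Rpl23a (-2.11 against -0.23).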

How the data were processed

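The deposited log2 values, 1 per probe set and array, were made by the authors with RMA (background correction, quantile normalization and a summary over probes; range 1.36 to 14.5). The log2 scale was inferred from RMA and this range. For RMA's version and the annotation build, the sources used here give none. Total RNA (300 ng) was labelled per array. RMA compresses differences, and arrays give no counting error, so precision is limited by their number (1 per group).

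Probe sets (35557) were named by the platform annotation. Of these, 21789 had 1 symbol, 1621 several and 12147 none, and only the first entered gene results, updated through RefSeq GRCm38.p6 (21698 matched). Sequences are from RefSeq. Several probe sets of a gene (999 genes) were represented by the brightest. The floor was the median of all gene values. Members and lists were chosen with earlier results of these data known. All members may be named, and of other lists the 2 widest differences each way at the floor. Utp3 was added. The steps were tested on simulated data with planted shifts larger than any member's difference, so recovery of smaller differences was not tested. Alternatives were centring, quantile normalization, lowess (fraction 0.3), averaged or single probe sets, a constant of 32, other floors, means and members left out. Tables and lowess were made with pandas 2.3.3 and statsmodels 0.14.6, correlations with scipy 1.17.1 and plots with matplotlib 3.10.9, under Python 3.11.15 with numpy 2.4.6.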

Additional observations from a re-analysis of the deposited data

Results flagged for a closer look

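Probe sets that list a ribosomal protein symbol together with other symbols were left out of the gene values above, but they carried signal. Of 233 such probe sets 132 had a higher signal in the induced array and 101 a lower one (median difference 0.13). Of all named genes 51.4% were higher and 48.6% lower (median 0.01). By log2 1 or more 2 of the 233 were lower, both of which also list a snoRNA, and 0 were higher. Among genes at the floor 1.79% were lower and 0.477% higher by this amount. For 16 members such probe sets, those listing a snoRNA left aside, could be set beside the member's own value, and in 14 their median lay on the same side of 0. In 6 of these 14 members (Rpl21, Rpl26, Rpl30, Rpl32l, Rpl34 and Rps15a) it differed by over 1.5 times from the member's own value. Lower by log2 0.58 or more were 5 of the 233 probe sets and higher 0, where 8.45% and 5.31% of genes at the floor passed. The exceptions in side were Rpl41 (0.01 by its own probe set, -0.02 by the others) and Rpl12. The 7 probe sets that list Rpl12 with another symbol were at 0.20 to 0.26, with a median mean signal of 12.7, whereas the probe set with Rpl12 alone was at -0.35 and a mean signal of 8.71, so the direction given for Rpl12 depends on which probe sets are read.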

How the results depend on the processing

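No paired analysis was possible because each group is 1 array. The median of the ribosomal protein genes (0.12) was 0.023 after centring and 0.18 with every probe set counted, where 155 of 215 were above 0. The large subunit median was 0.023 after centring, and its mean 0.039. The small subunit median was 0.016 after centring, 0.17 after quantile normalization, 0.16 without the level trend, 0.20 with every probe set counted and 0.17 without paralogs with names ending in l. The large minus small value (0.01) was -0.079 after quantile normalization, -0.060 with averaged probe sets, -0.053 without those paralogs and -0.11 by means, so its sign depended on the setting. After centring, 1 gene, Rpl22, was lower by log2 1. After centring, quantile normalization and lowess, in this order, the medians were -0.35, -0.14 and -0.16 for biogenesis factors, -0.27, -0.12 and -0.12 for polymerase I genes, -0.23, -0.063 and -0.063 for regulators, -0.17, -0.0036 and -0.0057 for translation factors and -0.16, 0.027 and 0.0099 for the 2 genes with other names (-0.06), whose sign turned. The cause was not tested. The other values under these alternatives, with a constant added, other floors or genes below the floor left out moved by no more than 0.05, the SD within a gene, or, for counts, 1.5 times.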
